A study of Homo sapiens with 20 samples.

Results

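The subject here was the accessible chromatin of chromosome 15 in HL60 cells, a human promyelocytic leukaemia line that matures towards neutrophils when given all-trans retinoic acid (ATRA). Every region that the deposited ATACseq files place on chromosome 15 was taken, which gave 606 of 8286 regions. The libraries labelled HK3-null came from cells edited with a lentiviral CRISPR vector against HK3, the gene of hexokinase 3, selected with puromycin and grown from single cells. The Cas9 control cells carried the nuclease without the knockout. Each genotype received 1 µM ATRA, or 0.01% DMSO as the vehicle, over 36 h. ATACseq had 2 libraries and RNAseq 3 libraries in each of the 4 groups. Since 1 knockout label covers every HK3-null library, an effect of losing HK3 and a trait of the cells that grew out of the limiting dilution cannot be told apart in these data. The study's methods call the replicates biological. The labels do not say whether they were separate cultures or clones, so the p-values measure only the spread between these libraries.

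ATACseq reads DNA where the Tn5 transposase could cut, which is mostly at promoters and enhancers that are free of nucleosomes. Chromosome 15 carries genes for several steps of myeloid biology, among them PML, a partner in the fusion protein of acute promyelocytic leukaemia, BCL2A1, a survival gene of the BCL2 family, B2M, the light chain of class I molecules, and PKM, the pyruvate kinase of glycolysis. Its proximal end holds an imprinted domain in which several genes are read from only 1 parental copy.

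The sequences below are those the findings turn on. They come from hg38, the build of the files, and show the central 200 bases of each region. Capitals mark matches, on either strand, to GAGGAA (bound by ETS factors such as PU.1), TTGCNNAA (C/EBP), TGANTCA (AP-1), TGTGGT (RUNX) and AGGTCA (the hexamer of nuclear receptors, retinoic acid receptors included). The motifs are shown wherever their letters occur, overlaps included. The first is an exception, higher in HK3-null cells where most of the chromosome was lower, and the next pair are among the largest falls. The last 3 are regions that changed with ATRA.
Exception between FES and MAN2A2, chr15:90897239-90897438, plus strand: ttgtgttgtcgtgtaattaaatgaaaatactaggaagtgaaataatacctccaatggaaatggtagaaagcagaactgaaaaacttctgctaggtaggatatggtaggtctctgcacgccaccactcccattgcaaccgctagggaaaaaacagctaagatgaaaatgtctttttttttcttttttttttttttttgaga
Largest fall, LOC105370983, chr15:93289977-93290176, plus strand: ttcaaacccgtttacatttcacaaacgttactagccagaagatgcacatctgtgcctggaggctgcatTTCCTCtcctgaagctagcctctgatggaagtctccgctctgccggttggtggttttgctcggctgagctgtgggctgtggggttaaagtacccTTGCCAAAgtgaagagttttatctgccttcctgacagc
Fall with no listed gene, chr15:86036353-86036552, plus strand: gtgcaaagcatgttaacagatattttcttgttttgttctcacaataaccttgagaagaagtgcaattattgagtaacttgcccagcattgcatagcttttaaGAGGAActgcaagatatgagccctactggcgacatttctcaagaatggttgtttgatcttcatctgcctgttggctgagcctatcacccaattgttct
Rise with ATRA, LOC101928635, chr15:58282339-58282538, plus strand: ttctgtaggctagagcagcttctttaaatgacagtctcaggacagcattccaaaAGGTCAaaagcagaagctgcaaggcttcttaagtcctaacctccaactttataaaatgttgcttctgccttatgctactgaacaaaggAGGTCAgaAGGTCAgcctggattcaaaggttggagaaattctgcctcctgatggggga
Fall with ATRA in Cas9 control, IGF1R, chr15:98731807-98732006, plus strand: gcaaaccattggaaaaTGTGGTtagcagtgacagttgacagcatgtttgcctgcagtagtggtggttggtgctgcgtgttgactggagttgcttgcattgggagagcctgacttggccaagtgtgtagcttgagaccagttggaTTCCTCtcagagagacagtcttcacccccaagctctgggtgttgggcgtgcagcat
Fall with ATRA in both genotypes, LOC105370848, chr15:61831202-61831401, plus strand: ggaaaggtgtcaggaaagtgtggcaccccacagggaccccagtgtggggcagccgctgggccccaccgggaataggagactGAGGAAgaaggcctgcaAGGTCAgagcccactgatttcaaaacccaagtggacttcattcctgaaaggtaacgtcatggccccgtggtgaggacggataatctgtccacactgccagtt

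A match is a description of letters and not a bound site. Over the 606 chromosome 15 windows, GAGGAA was found in 36%, TGTGGT in 22.9%, TTGCNNAA in 13.2% and AGGTCA in 11.9%, near the 34.1%, 24.1%, 13.7% and 12.3% of all 8286 windows. TGANTCA stood in 5.94% of the chromosome 15 windows and in 14.6% of all windows. It was in 8 of the 24 windows (33.3%) whose regions were higher in HK3-null cells with ATRA and in 28 of the 582 (4.81%) that were lower. The same letters were in 25.6% of the 2579 higher and 5.03% of the 2069 lower regions on the autosomes other than 5, 6, 8, 13 and 15, so each chromosome 15 group was near its counterpart elsewhere. The sequence AGGTCA, 2 further bases and AGGTCA again was found, on either strand, in 1 of all 8286 windows. That window belongs to the LOC101928635 region printed above, which gained signal with ATRA in both genotypes. No other spacing was searched, so the rarity holds for this spacing alone. Whether the repeat goes with a rise in ATRA was not tested.

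The 606 regions ran from 20192995 to 101655310, with a median length of 467 bases (210 to 1637) and a median gap of 57 kb to the next. No gene was listed beside 129 of them. Transcript starts lay in 96 (15.8%), exons without a start in 55 (9.08%), introns in 284 (46.9%), and 171 (28.2%) lay between genes. On the 4648 regions of the autosomes other than 5, 6, 8, 13 and 15, the corresponding shares were 15.2%, 10.5%, 46% and 28.4%. Those autosomes serve as the comparison throughout and are called the other autosomes below. Chromosomes 5, 6, 8 and 13 were left out because earlier results of these data marked them, too, as shifted between the genotypes. The comparison was thus chosen with the outcome known. Whether chromosome 15 differs from those chromosomes was not tested.

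The files hold a signal for each region after all libraries were sampled to the same number of tags, so the depth before sampling is unknown. Summed over all regions, the signal was 244488 in Cas9 control ATRA replicate 2 and 345345 to 390632 in the other 7 libraries. The RNAseq values were normalized counts whose sum was 29053846 to 31548200 per library. HL60 markers were present in all 12 RNAseq libraries (MPO 440811 to 661371 normalized counts, ELANE 10204 to 32680), while MS4A1 and ALB were listed at 0 throughout. HK3 had 90, 65 and 105 normalized counts in Cas9 control DMSO, 344, 302 and 346 in HK3-null DMSO, 1305, 1298 and 1850 in Cas9 control ATRA, and 1384, 1285 and 1975 in HK3-null ATRA. The HK3-null libraries thus held no less HK3 RNA than the controls, and a gene count does not check an edit that disrupts the reading frame. The labels were used as given.

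Across all 8286 regions the ratio between the genotypes' mean signals in ATRA was never closer to 1 than 1.65-fold in either direction. The deposited set therefore appears to have been chosen on that contrast, and HK3-null against Cas9 control in ATRA is given as a description without a test. The DMSO libraries are other libraries, but their calls are not independent of such a choice. All 582 regions that were lower in ATRA were also lower in DMSO, and 21 of the 24 higher ones were also higher. The DMSO tests below therefore set the size of each difference against the spread between libraries, within regions that already differed in ATRA.

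Chromosome 15 was lower in HK3-null cells nearly from end to end. The median signal of the 606 regions was 48.7 and 52 in the Cas9 control DMSO libraries and 14.8 and 14.9 in the HK3-null DMSO libraries. With ATRA it was 52.3 and 35.4 in Cas9 control and 11.7 and 12.1 in HK3-null. The groups did not overlap in these medians, and the median difference over all 606 regions in DMSO was -1.64 on the log2(signal + 1) scale (quartiles -2.27 and -1.27). In DMSO, 585 regions (96.5%) were lower and 21 higher in HK3-null, whereas 46.1% of regions on the other autosomes were lower. Both HK3-null values lay below both Cas9 control values in 580 of the 606 regions, above both in 18, and overlapped in 8. Over all 8286 regions, 94.8% did not overlap and 44.6% did so in the lower direction.

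**Figure D1:**
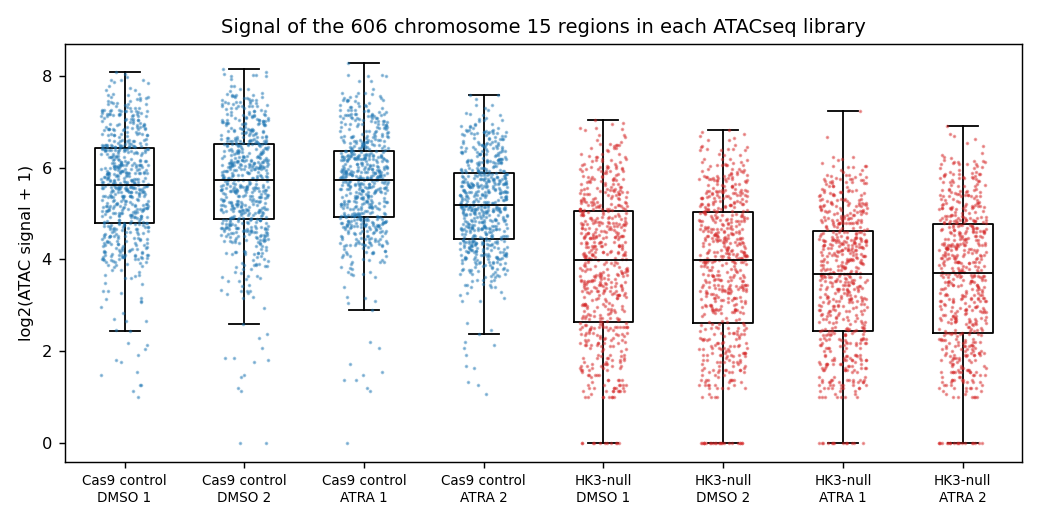
Signal of the 606 chromosome 15 regions in each of the 8 ATACseq libraries, on the log2(signal + 1) scale. Points are regions, boxes give the quartiles with the median as a line, and whiskers reach 1.5 times the interquartile range. The 4 HK3-null libraries have lower medians than the 4 Cas9 control libraries.

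Regions with a mean signal above 17.1 were tested, 6214 over the genome and 456 on chromosome 15. The other 150 chromosome 15 regions were below that level. In limma, with p-values adjusted over all 6214 regions and a fold of at least 1.5, 424 of the 456 were called lower in HK3-null DMSO and 11 higher. The background over all tested regions was 43.9% called lower and 42.7% called higher. The median difference of the 456 was -1.53, against 0.25 for the 3403 tested regions of the other autosomes. Centring each library on the regions of the other autosomes gave a median of -1.36 over the 456, against the -1.53 without it.

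Among the 585 regions that were lower in DMSO, 54 differed by less than 1 on the log2 scale, 331 by 1 to 2, 128 by 2 to 3 and 72 by more than 3. The share between 1 and 2 was 56.6% on chromosome 15 and 40.3% among the 2143 lower regions of the other autosomes. The share above 3 was 12.3% against 16.6%. The regions were split by mean signal in Cas9 control cells into 3 groups of 202. The strongest (67.7 to 258.6) had a median difference of -1.46 (quartiles -1.81 and -1.24), the next group -1.66, and the weakest -2.04 (quartiles -2.64 and -1.32). The Cas9 control DMSO libraries enter both this split and the difference, and the region set appears to have been chosen on a genotype ratio. Whether the trend with signal goes beyond that was not tested. By annotation the medians were -1.42 at transcript starts, -1.71 in exons, -1.62 in introns and -1.7 between genes. On the other autosomes, transcript starts had a median of 0.89.

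The fall held along the length of the chromosome. In windows of 10 Mb the median difference in DMSO lay between -1.36 (50 to 60 Mb, 55 regions) and -1.99 (20 to 30 Mb, 23 regions), and every window had more regions lower than higher. The first of these windows, next to the centromere, held 5 of the 21 regions higher in DMSO. The last window, from 100 Mb on, held 24 regions and none that was higher. The longest run of neighbours without a region higher in DMSO had 81 regions and spanned 8.83 Mb, from 81141449 to 89975039.

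**Figure D2:**
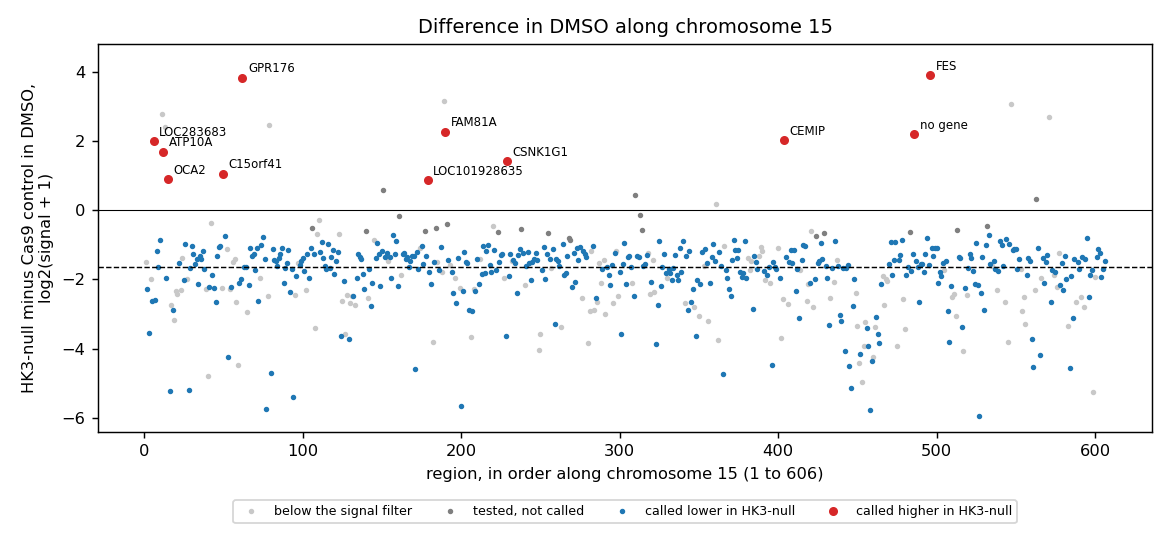
Difference between HK3-null and Cas9 control in DMSO, log2(signal + 1), for the 606 regions in order along chromosome 15. The dashed line is the median of -1.64. Blue points were called lower (424), red points called higher (11, with the first listed gene), dark grey points were tested and not called, and light grey points were below the signal filter.

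Within that run lay the deepest stretch, which was singled out after its values had been seen. The longest series of neighbours that all lay in the lowest 25% of differences had 16 regions, from 85865037 to 87724752. It covered 1.86 Mb beyond the AKAP13 and KLHL25 genes, and 13 of its 16 regions had no listed gene. Their median signal was 40.7 and 39.8 in Cas9 control DMSO and 2.1 and 1.8 in HK3-null DMSO. The highest value in any HK3-null library was 9.0 and the lowest in any Cas9 control library was 13.8, so the genotypes did not overlap. Differences in DMSO ran from -2.39 to -5.77 with a median of -3.88. Of the 50 windows of 1 Mb that held at least 5 regions, those from 85 to 86 Mb (23 regions, median -3.03) and from 86 to 87 Mb (6 regions, median -4.07) were the lowest.

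The 6 largest called falls were spread over the chromosome. The region at chr15:93289801-93290351, in an intron near LOC105370983, had a signal of 86.9 and 91.4 in Cas9 control DMSO and of 1.1 and 0.0 in HK3-null DMSO. Its difference was -5.95 ± 0.53 (SE, adjusted p = 7.76e-12, limma). The region with no listed gene at chr15:86036173-86036732, inside the deep stretch, had 82.5 and 96.5 against 1.8 and 0.0, a difference of -5.77 ± 0.49 (adjusted p = 2.59e-12, limma). In both regions the HK3-null values were near 0 while all Cas9 control DMSO values were above the chromosome's medians of 48.7 and 52.

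At the transcript start of IVD, whose product isovaleryl-CoA dehydrogenase acts in leucine breakdown, the region chr15:40405405-40406020 had 133.8 and 163.3 in Cas9 control DMSO. It had 2.0 and 1.6 in HK3-null DMSO and 0.0 and 1.9 in HK3-null ATRA. The difference in DMSO was -5.75 ± 0.44 (adjusted p = 3.44e-13, limma), and no HK3-null library came near a control. A transcript start inside MGA, a MAX-binding transcriptional repressor, lay in chr15:41660251-41660960 with 138.7 and 136.1 against 2.7 and 2.0, a difference of -5.39 ± 0.38 (adjusted p = 2.99e-14, limma). The remaining pair, chr15:62281741-62282205 between genes near LOC102724938 and chr15:28021654-28022059 in an intron of OCA2, a gene of melanosome biology, differed by -5.66 ± 0.54 and -5.22 ± 0.61. Their adjusted p-values were 4.56e-11 and 3.18e-09 in limma.

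The 3 regions of highest mean signal also had lower values in HK3-null, by smaller amounts. The region chr15:84598243-84598787, in an exon near ZSCAN2, a zinc finger gene, had 265.5 and 265.4 in Cas9 control DMSO against 103.6 and 86.9, a difference of -1.47 ± 0.29. The one at chr15:43510446-43511266, at a start between TP53BP1, a DNA damage response gene, and MAP1A, had 250.4 and 259.5 against 116.3 and 96.5, a difference of -1.26 ± 0.28. At chr15:94206304-94207011, near LOC105370984, the values were 270.7 and 204.7 against 130.2 and 106.3, a difference of -1.0 ± 0.30. The adjusted p-values were 3.57e-05, 0.000158 and 0.00263 in limma, and in no case did the groups overlap. The last call was lost without Cas9 control DMSO replicate 1 (-0.79, adjusted p = 0.0656, limma) and without HK3-null DMSO replicate 2 (-0.85, adjusted p = 0.0565, limma).

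Exceptions were few. With ATRA, 24 of the 606 regions were higher in HK3-null, and 21 of these 24 were also the 21 that were higher in DMSO. The other 3, near DAPK2, HDGFRP3 and no gene, had differences of -0.46, -0.61 and -0.14 in DMSO. In 4 of the 24, HK3-null ATRA replicate 1 stood far above replicate 2, with 52.7 against 6.7 at DAPK2, 75 against 11 at SCAPER, 24.8 against 4.4 at HDGFRP3 and 151.2 against 40.7 at chr15:70412957-70413337. In those 4 the higher mean rested mainly on that 1 library. Of the 24, 15 passed the signal filter and 11 were called higher in DMSO. The number called was 5 without HK3-null DMSO replicate 1, 6 without HK3-null DMSO replicate 2, and 17 with no signal filter.

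The largest exception was chr15:90897138-90897539, between FES, a myeloid tyrosine kinase, and MAN2A2, a Golgi mannosidase. Its signal was 3.1 and 2.5 in Cas9 control DMSO and 53.8 and 56.6 in HK3-null DMSO, with 7.3 and 9.8 against 28.1 and 55.5 in ATRA. The difference in DMSO was 3.89 ± 0.42 (adjusted p = 5.76e-10, limma). Its nearest neighbours with lower signal, 57 kb before and 36.8 kb after, differed by -1.57 and -1.08. FES RNA did not follow this region. It had 2054, 1931 and 2530 normalized counts in Cas9 control DMSO and 1441, 1383 and 1609 in HK3-null DMSO, a difference of -0.55 ± 0.16 that did not reach the 2-fold threshold (adjusted p = 0.0141, limma).

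At the start of GPR176, an orphan G protein-coupled receptor, chr15:39920756-39921264 had 1.8 and 2.6 in Cas9 control DMSO and 42.8 and 44.1 in HK3-null DMSO, a difference of 3.83 ± 0.55 (adjusted p = 2.14e-07, limma). In chr15:59399399-59399831, an intron beside FAM81A, the values were 4.4 and 8.1 against 29.9 and 35.9, a difference of 2.27 ± 0.43 (adjusted p = 1.68e-05, limma). A region between genes at chr15:89985114-89985476 had 2.8 and 11.5 against 40.7 and 22.8, a difference of 2.20 ± 0.49 (adjusted p = 0.000153, limma). In each of these, both HK3-null values exceeded both controls, as the choice of named regions required. The last region's replicates were spread widely.

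The CEMIP region at chr15:80955739-80956190, beside a gene for a hyaluronan-binding protein, had 13.2 and 13.8 in Cas9 control DMSO and 65.8 and 50.4 in HK3-null DMSO, a difference of 2.02 ± 0.44 (adjusted p = 0.000108, limma). With ATRA it fell in both genotypes, to 1.6 and 3.6 in Cas9 control and to 21.7 and 12.7 in HK3-null. At the start of NIPA1, a magnesium transporter gene at the edge of the imprinted domain, chr15:22785926-22786793 had 8.7 and 6.7 against 31.6 and 35.8, a difference of 2.0 ± 0.39 (adjusted p = 3.09e-05, limma). The next region, 24.8 kb on, differed by -2.60.

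Single genes could hold regions of both kinds. All 3 regions of ATP10A, which encodes a phospholipid flippase, were higher in HK3-null. The first, chr15:25790273-25790528, had 1.9 and 1.8 in Cas9 control DMSO and 16.1 and 20.6 in HK3-null DMSO. IGF1R, the receptor of insulin-like growth factor 1, had 9 regions, of which 2 were higher in HK3-null. One of these, chr15:98865910-98866388, had 2.4 and 3.2 against 22.8 and 23.5, a difference of 2.68, yet lay 6.84 kb from a region that differed by -1.29. It was below the signal filter and was not tested.

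**Figure D3:**
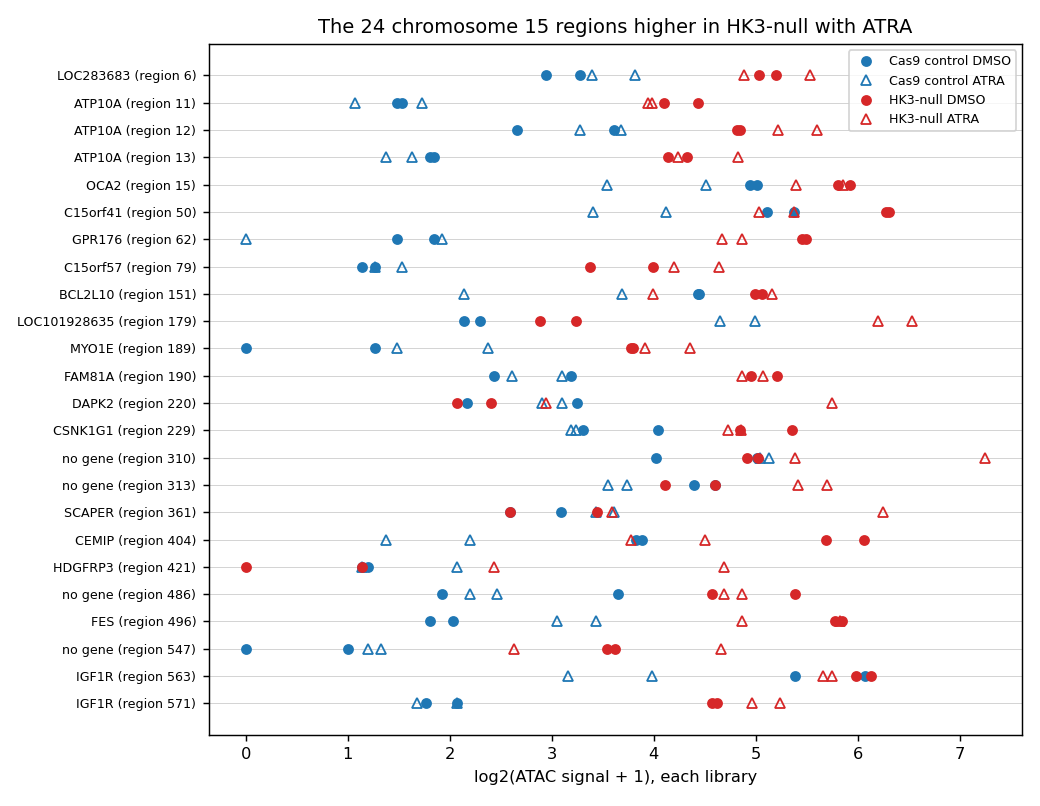
Signal of the 24 regions that were higher in HK3-null with ATRA, log2(signal + 1), in each of the 8 libraries. Rows are regions in chromosome order, named by the first listed gene and the region's place among the 606. Filled circles are DMSO, open triangles ATRA, blue Cas9 control and red HK3-null. The HK3-null values of FES, GPR176, ATP10A and the second IGF1R region lie to the right of all Cas9 control values.

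ATRA changed a smaller number of regions. These contrasts share the ATRA libraries on which the region set appears to have been chosen. In Cas9 control cells, 11 of the 456 tested regions were called higher and 44 lower with ATRA, 55 in all, where the background was 2.54% higher and 15.6% lower. In HK3-null cells 13 were higher and 66 lower, 79 in all, where the background was 5.04% higher and 11.8% lower. Quantile normalization changed the split in Cas9 control to 30 higher and 29 lower and in HK3-null to 19 higher and 69 lower. The median of all tested regions then moved from -0.30 to 0.01 in Cas9 control and from -0.17 to -0.08 in HK3-null. Without Cas9 control ATRA replicate 2, the library of lowest summed signal, 9 were higher and 8 lower in Cas9 control. Without Cas9 control DMSO replicate 1 or 2 the numbers in all were 24 and 18, and in HK3-null they were 33 and 44 without HK3-null DMSO replicate 1 or 2. Of the regions called in either genotype, 6 were higher and 27 lower in both, 22 were called in Cas9 control alone and 46 in HK3-null alone. Whether the genotypes differed in these effects was not tested.

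The strongest rise was shared. The region chr15:58282116-58282760, in an intron near LOC101928635, had 3.4 and 3.9 in Cas9 control DMSO and 30.7 and 24.1 with ATRA. In HK3-null it went from 8.4 and 6.4 to 72.2 and 91.7. The rises were 2.61 ± 0.40 and 3.30 ± 0.40 (adjusted p = 1.33e-05 and 1.55e-07, limma). This region was higher in HK3-null in both treatments, by 0.86 ± 0.40 in DMSO (adjusted p = 0.0456, limma), and holds the AGGTCA repeat described above.

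The other named regions that gained signal started from a lower level in HK3-null. In chr15:40753909-40754238, an intron between RMDN3, a microtubule-associated gene, and GCHFR, the regulator of tetrahydrobiopterin synthesis, Cas9 control went from 23.2 and 17.6 to 101.2 and 78.0. HK3-null went from 6.2 and 7.4 to 12.4 and 27.1. The rises were 2.08 ± 0.39 and 1.32 ± 0.39 (adjusted p = 0.000151 and 0.0151, limma), so the HK3-null level with ATRA overlapped the control level without it. A region between genes at chr15:70236109-70236571 went from 7.4 and 21.2 to 57.9 and 40.4 in Cas9 control, a rise of 1.86 ± 0.49. In HK3-null it went from 1.6 and 1.3 to 18.0 and 10.5, a rise of 2.59 ± 0.49 (adjusted p = 0.00576 and 0.000179, limma). The control call was lost without Cas9 control DMSO replicate 1 (1.15, adjusted p = 0.224, limma). In FBN1, the gene of the matrix protein fibrillin 1, chr15:48617513-48617989 rose by 1.05 ± 0.35 in Cas9 control and by 2.17 ± 0.35 in HK3-null (adjusted p = 0.0302 and 1.91e-05, limma).

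Among the falls, chr15:61830759-61831843 near LOC105370848 was alike in both genotypes. It went from 112.4 and 109.9 to 25.7 and 24.3 in Cas9 control and from 43.2 and 40.7 to 10.9 and 6.8 in HK3-null, changes of -2.11 ± 0.34 and -2.15 ± 0.34 (adjusted p = 2.01e-05 and 1.11e-05, limma). An IGF1R intron at chr15:98731597-98732216 went from 40.7 and 66.3 to 7.9 and 14.8 in Cas9 control, a change of -2.15 ± 0.34 (adjusted p = 1.88e-05, limma). In HK3-null it had 62.1 and 69.1 in DMSO and 52.5 and 49.4 with ATRA, a change of -0.36 ± 0.34 (adjusted p = 0.543, limma). The LOC105370983 region of the largest genotype difference had 86.9 and 91.4 in Cas9 control DMSO and 23.0 and 16.9 with ATRA, a change of -2.12 ± 0.53 (adjusted p = 0.00374, limma). That call was lost without Cas9 control ATRA replicate 2 (-1.91, adjusted p = 0.0729, limma), DMSO replicate 1 (-2.16, adjusted p = 0.0577, limma) or DMSO replicate 2 (-2.08, adjusted p = 0.0736, limma).

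Falls called in HK3-null were largest, after LOC105370848, in RAB27A and MAP2K5. The RAB27A intron at chr15:55277097-55277490, in a gene for a GTPase of granule secretion, went from 30.5 and 18.6 to 2.5 and 8.4, a change of -2.11 ± 0.42 (adjusted p = 0.000406, limma). In Cas9 control the change was -0.83 ± 0.42 (adjusted p = 0.189, limma). The region in MAP2K5, the kinase upstream of ERK5, chr15:67541755-67541984, went from 13.1 and 20.4 to 1.6 and 5.5 in HK3-null, a change of -2.07 ± 0.45 (adjusted p = 0.000906, limma).

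**Figure D4:**
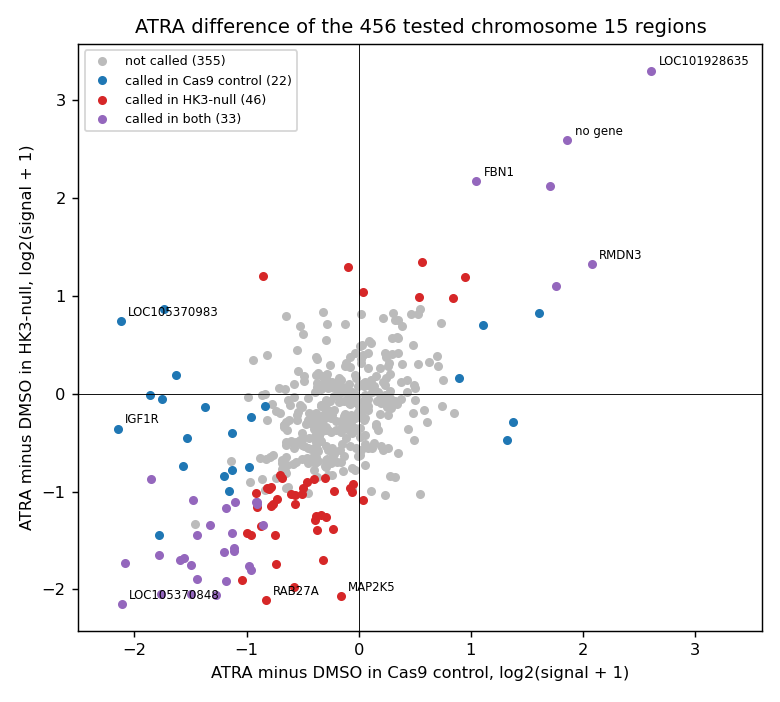
Difference between ATRA and DMSO in Cas9 control (horizontal) and HK3-null (vertical), log2(signal + 1), for the 456 tested regions. Colours give where a region was called (33 in both, 22 in Cas9 control, 46 in HK3-null). The LOC101928635 region is at the upper right with rises of 2.61 and 3.30.

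The regions listed 428 genes, of which 330 had an RNAseq entry and 98 were not analysed here. A gene could be listed by up to 9 regions. Tested were 199 genes, those whose mean log2 value exceeded 3 in at least 1 group, and 131 were not. Their RNA was lower in HK3-null to about the same extent in both treatments. In DMSO 88 of the 199 were called lower and 5 higher (limma, at least 2-fold, adjusted p below 0.05 over 13256 genes), against a background of 8.21% lower and 11.1% higher. In ATRA 89 were lower and 7 higher, against 9.93% and 11.4%, and 70 genes were called lower in both. The median difference was -1.0 on the log2 scale in each treatment. In bulk RNA, fewer cells of a type and less RNA per cell cannot be told apart. Copies of the chromosome were not counted in these data, so neither the ATAC signal nor the RNA is a value per copy.

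The same level of change was seen in chromosome 15 genes that no region listed. Of 235 such genes, 93 were called lower and 5 higher in DMSO, with a median of -0.93. The 10207 tested genes of the other autosomes had a median of 0.01. Across the 199 listed genes, 174 had both a lower median region and lower RNA in DMSO, 17 a lower region and higher RNA, 5 a higher region and lower RNA, and 3 were higher in both. Spearman's rank correlation between the region and the RNA difference was 0.338, over genes that are not independent and share libraries. Genes whose start lay in a region had a median of -1.06 (48 of 96 called lower) and the rest -0.82 (40 of 103). Along the chromosome, the median RNA difference of listed genes in DMSO was between -0.59 and -1.18 in the windows from 30 Mb on, and 1.27 over the 4 tested genes from 20 to 30 Mb. Of those 4, NIPA1 (3.99) and ATP10A were higher, and CYFIP1 (-2.91) and MKRN3 (-1.44) were lower. That median therefore does not describe a common rise.

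The largest falls in RNA included genes that were nearly silent in HK3-null. LOC105370849 had 547, 563 and 687 normalized counts in Cas9 control DMSO and was listed at 0 in all 6 HK3-null libraries. IVD had 1991, 1845 and 1972 against 29, 14 and 50 in DMSO, a difference of -6.15 ± 0.37 (adjusted p = 1.26e-07, limma), and its start region was the one with 2.0 and 1.6. KLHL25, which encodes an adaptor of a ubiquitin ligase, had 194, 234 and 247 against 4, 4 and 4, a difference of -5.81 ± 0.22 (adjusted p = 3e-09, limma). Its region at chr15:85750412-85751764, just before the deep stretch, had 102.7 and 102.2 against 2.1 and 1.8.

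AKAP13, the neighbour of KLHL25 and an anchoring protein of protein kinase A, was chosen after its values were seen. It had 850, 720 and 893 normalized counts in Cas9 control DMSO and 141, 139 and 155 in HK3-null DMSO, a difference of -2.5 ± 0.13 (adjusted p = 3.04e-08, limma), and all 9 regions that list it, the KLHL25 region among them, had lower signal. ABHD17C, a depalmitoylase gene, had 415, 402 and 352 against 10, 13 and 6, a difference of -5.40 ± 0.29 (adjusted p = 4.43e-08, limma). PCSK6, a proprotein convertase, had 116, 119 and 151 against 4, 9 and 2, a difference of -4.94 ± 0.57 (adjusted p = 2.13e-05, limma). In none of these did the genotypes overlap, which for ABHD17C and PCSK6 was a condition of being named.

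MGA showed that region and RNA could differ in size. The region at its internal start differed by -5.39, while its RNA had 2272, 2282 and 2399 normalized counts in Cas9 control DMSO and 934, 1085 and 1354 in HK3-null DMSO, a difference of -1.06 ± 0.13 (adjusted p = 2.63e-05, limma). Without HK3-null DMSO replicate 1 it was -0.93, under the 2-fold threshold. MGA was listed by 3 regions, and the other 2 differed by -2.45 and -1.89.

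In all, 3 genes were called higher in HK3-null RNA in both treatments. NIPA1 had 20, 11 and 15 in Cas9 control DMSO and 217, 250 and 242 in HK3-null DMSO, a difference of 3.99 ± 0.25 (adjusted p = 1.57e-07, limma). Its start region was one of the exceptions, while its other region was lower. ATP10A had 3, 0 and 0 against 26, 26 and 21 in DMSO, and 0, 1 and 0 against 177, 167 and 174 in ATRA. With 1 added to each normalized count the differences were 3.99 and 7.11 (adjusted p = 1.69e-05 and 8.24e-08, limma). On the deposited log2 values its DMSO call was lost without Cas9 control DMSO replicate 2 or 3 (adjusted p = 0.054 and 0.0516, limma). BCL2A1 had 10, 10 and 10 against 80, 69 and 73 in DMSO, a difference of 2.88 ± 0.13 (adjusted p = 1.21e-08, limma), and 193, 155 and 169 against 523, 549 and 559 in ATRA. Its only region had a difference of -1.49, so its RNA and its region went in opposite directions.

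The promoter of NIPA1, higher in both readouts, and that of ABHD17C, lower in both, are printed for comparison from RefSeq (GRCh38.p14). They show the 200 bases before a transcript start on the gene's strand. For NIPA1 that start is 22786644, while the RefSeq gene begins at 22786225, so its window lies within the gene. The ABHD17C window lies before its gene, which begins at 80695310. None of the 5 motifs was found in either window, against 19.3% of 35116 promoter windows of this length for GAGGAA, 9.83% for AGGTCA, 8.72% for TGTGGT, 6.91% for TTGCNNAA and 5.38% for TGANTCA. The NIPA1 window has a GC content of 82% with 26 CpG pairs and the ABHD17C window 86.5% with 37.
NIPA1 promoter, chr15:22786444-22786643, plus strand: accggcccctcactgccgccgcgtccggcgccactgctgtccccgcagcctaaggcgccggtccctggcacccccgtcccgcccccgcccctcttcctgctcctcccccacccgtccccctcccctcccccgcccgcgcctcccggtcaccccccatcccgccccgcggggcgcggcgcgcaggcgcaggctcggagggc
ABHD17C promoter, chr15:80695110-80695309, plus strand: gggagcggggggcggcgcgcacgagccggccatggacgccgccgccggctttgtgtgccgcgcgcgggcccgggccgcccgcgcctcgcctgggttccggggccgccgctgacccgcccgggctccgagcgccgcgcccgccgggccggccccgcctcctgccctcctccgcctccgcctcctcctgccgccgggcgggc

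**Figure D5:**
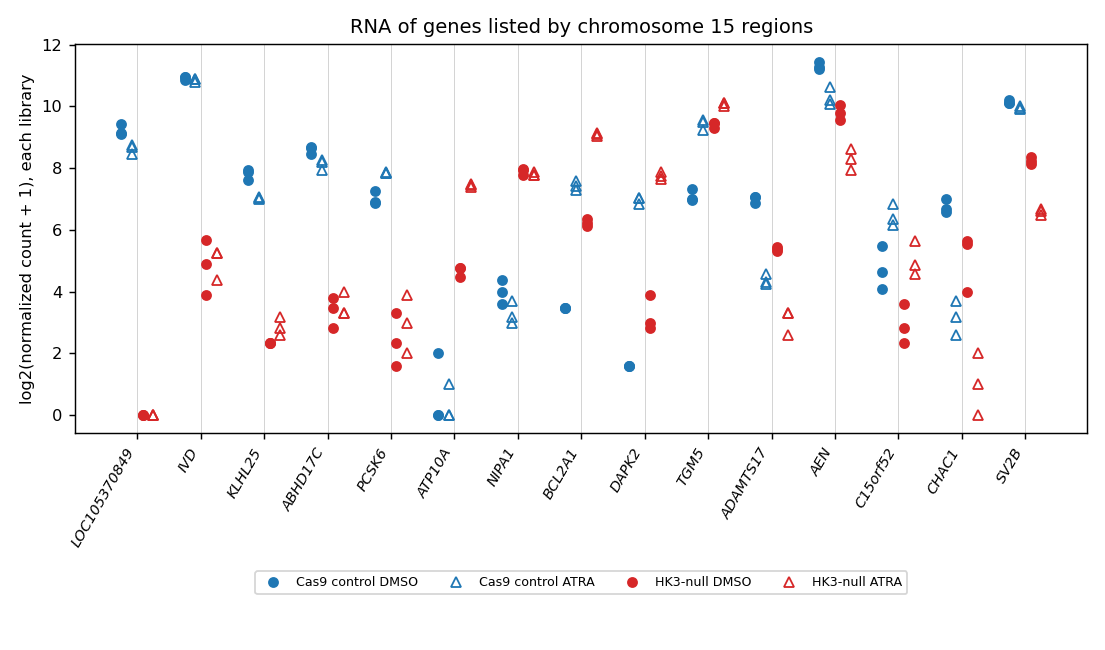
RNA of the named genes that chromosome 15 regions list, log2(normalized count + 1), in each of the 12 RNAseq libraries. Filled circles are DMSO, open triangles ATRA, blue Cas9 control and red HK3-null. LOC105370849 is at 0 in every HK3-null library, and NIPA1, BCL2A1 and ATP10A lie higher in HK3-null than in Cas9 control of the same treatment.

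With ATRA, 14 of the 199 listed genes were called higher and 3 lower in Cas9 control, where the background was 6.84% higher and 2.78% lower. In HK3-null 19 were higher and 16 lower, where the background was 8.06% and 6.05%. Quantile normalization gave 14 higher and 18 lower in HK3-null. DAPK2, a death-associated kinase of granulocytes, rose from 2, 2 and 2 to 114, 130 and 131 normalized counts in Cas9 control and from 7, 6 and 14 to 201, 216 and 233 in HK3-null, changes of 5.96 ± 0.29 and 4.69 ± 0.29 (adjusted p = 4.25e-08 and 1.85e-07, limma). A DAPK2 intron region, chr15:63925298-63925679, had 52.7 and 6.7 in HK3-null ATRA and 3.2 to 8.5 elsewhere, so 1 library set its mean. BCL2A1 rose by 4.10 ± 0.13 in Cas9 control and 2.88 ± 0.13 in HK3-null (adjusted p = 8.47e-10 and 1.28e-08, limma).

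TGM5, a transglutaminase gene, had 125, 128 and 158 in Cas9 control DMSO and 604, 723 and 758 with ATRA. In HK3-null it had 700, 630 and 707 in DMSO, already at the control's level with ATRA, and 1097, 1104 and 1029 with ATRA. The rises were 2.34 ± 0.11 and 0.67 ± 0.11 (adjusted p = 3.35e-08 and 0.000427, limma), the second under the 2-fold threshold. C15orf52 rose in both genotypes, from 44, 16 and 24 to 71, 80 and 113 in Cas9 control and from 6, 4 and 11 to 23, 28 and 49 in HK3-null. The rises were 1.75 ± 0.46 and 2.30 ± 0.46 (adjusted p = 0.0105 and 0.0016, limma).

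SV2B, a synaptic vesicle glycoprotein gene with 6 regions, had 1108, 1181 and 1105 in Cas9 control DMSO and 1032, 955 and 988 with ATRA. In HK3-null it went from 277, 298 and 331 to 96, 89 and 102, a change of -1.66 ± 0.09 (adjusted p = 4.62e-08, limma). ADAMTS17, a secreted metalloprotease gene, fell in both, from 134, 117 and 134 to 19, 23 and 18 in Cas9 control and from 43, 41 and 39 to 9, 5 and 9 in HK3-null. The changes were -2.69 ± 0.25 and -2.47 ± 0.25 (adjusted p = 8.9e-06 and 9.66e-06, limma). AEN, a p53-regulated nuclease gene, fell by 1.01 and 1.51 on the log2 scale (adjusted p = 0.00128 and 4.67e-05, limma). Its fall in Cas9 control was at the edge of the threshold, and leaving out Cas9 control ATRA replicate 2 or 3 or Cas9 control DMSO replicate 1, or quantile normalization, took it to -0.90 to -0.96. CHAC1, a glutathione-degrading enzyme induced by stress, had 15, 49 and 46 in HK3-null DMSO and 3, 1 and 0 with ATRA (adjusted p = 0.0128, limma). In Cas9 control it went from 102, 128 and 94 to 12, 8 and 5 and was not called (adjusted p = 0.201, limma). No fold is given for CHAC1 because 1 HK3-null library is at 0. The value written for that 0 enters the spread behind both p-values.

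The test of the difference in ATRA effect between genotypes passed for 16 of the 199 listed genes (8.04%), 6 with a higher and 10 with a lower effect in HK3-null, and for 9.12% of all tested genes. KLHL25, BCL2A1, TGM5 and SV2B, named above, are among the 16.

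Grouped by role, chromosome 15 genes were mostly lower. These lists hold genes of the chromosome whether or not a region listed them, and over all genes the DMSO background was 8.21% lower and 11.1% higher. Of the chromosome's own genes, 44.2% of the 199 listed and 39.6% of the 235 others were called lower in DMSO. The shares called higher were 2.51% and 2.13%. In ATRA, 44.7% and 40.4% were called lower. Whether any list differed from the chromosome as a whole was not tested. In metabolism, mitochondria and lysosome, 11 of 17 tested genes were called lower in DMSO and 13 in ATRA, none higher, with a median of -1.23 in DMSO. PKM was lower in HK3-null, with 67430, 64809 and 66161 normalized counts in Cas9 control DMSO and 24448, 24718 and 23492 in HK3-null DMSO, a difference of -1.45 ± 0.05 (adjusted p = 2.86e-09, limma). Besides IVD, the largest falls were in GATM, the first enzyme of creatine synthesis (-4.28 ± 0.31), and MRPL46, a mitochondrial ribosomal protein (-1.69 ± 0.07), with adjusted p-values of 5.11e-07 and 4.71e-09 in limma.

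In DNA repair and replication, 6 of 13 genes were called lower in each treatment and none higher, and all 13 differences in DMSO lay below 0, from -0.69 to -1.59. TP53BP1 (-1.59 ± 0.10), the Fanconi-associated nuclease FAN1 (-1.51 ± 0.09) and the ubiquitin ligase HERC2 (-1.45 ± 0.09) had the largest falls, with adjusted p-values of 1.84e-07, 9e-08 and 2.24e-07 in limma. In mitosis and centrosome, 6 of 14 were lower in DMSO and 3 in ATRA, none higher, with a median of -0.93. The largest were TUBGCP4 (-1.43), TUBGCP5 (-1.20) and CCNB2 (-1.09), components of the microtubule-nucleating ring and a mitotic cyclin, with adjusted p-values of 5.18e-08, 0.00305 and 1.51e-07 in limma. TUBGCP5 fell short of the fold threshold without HK3-null DMSO replicate 3 (-0.99, adjusted p = 0.0143, limma). In class I presentation and secretory pathway, 4 of 8 were lower in DMSO and 1 in ATRA, none higher. PPIB, an isomerase of the endoplasmic reticulum, differed by -1.58 ± 0.06 (adjusted p = 3.69e-09, limma). B2M had 43478, 46754 and 41988 against 24669, 26066 and 24270 in DMSO, a difference of -0.82 ± 0.06 that did not reach the fold threshold (adjusted p = 3.6e-07, limma).

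Signalling and transcription factors had 6 of 20 lower in each treatment and none higher, with a median of -0.80 in DMSO. SMAD6, an inhibitor of BMP signalling, differed by -3.05 ± 0.54, ZNF609 by -1.23 ± 0.23 and RFX7 by -1.18 ± 0.13, with adjusted p-values of 0.000585, 0.000794 and 1.21e-05 in limma. IGF1R and MAP2K5 were each listed by 9 regions. The IGF1R difference was -0.94 ± 0.17, under the fold threshold (adjusted p = 0.000565, limma), and passed it without Cas9 control DMSO replicate 2 (-1.02) or HK3-null DMSO replicate 3 (-1.1). In retinoid handling and nuclear receptors only NR2F2 and PML of 9 genes were tested, and both were called lower in ATRA and neither in DMSO. PML had 2228, 2275 and 2638 in Cas9 control ATRA and 1162, 1129 and 1089 in HK3-null ATRA, a difference of -1.08 ± 0.09 (adjusted p = 1.19e-06, limma), which fell short of the 2-fold threshold without Cas9 control ATRA replicate 3. CRABP1, ALDH1A2 and STRA6 were at group means of at most 1.33 normalized counts.

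The remaining lists held most of the genes that were higher. In apoptosis and BCL2 family, 2 of 7 were called higher in DMSO (BCL2A1 and DAPK2) and 2 lower, and in ATRA 2 were higher and 3 lower. BMF, a BH3-only protein with 4 regions, had 571, 684 and 539 against 468, 536 and 462 in DMSO and 302, 387 and 384 against 752, 948 and 862 in ATRA, the latter a difference of 1.26 ± 0.13 (adjusted p = 7.66e-06, limma). With ATRA, BMF differed from DMSO by -0.74 ± 0.13 in Cas9 control and by 0.80 ± 0.13 in HK3-null, both under the 2-fold threshold (adjusted p = 0.000866 and 0.000354, limma). The difference between these effects was 1.55 ± 0.18 (adjusted p = 0.000386, limma). In myeloid and leukocyte effectors, 3 of 18 were higher and 3 lower in DMSO, and 4 higher and 2 lower in ATRA, with a median of -0.42 in DMSO. TYRO3, a receptor of the TAM family, was lower (-2.0 ± 0.16, adjusted p = 1.14e-06, limma). AQP9 and TM6SF1 were higher in DMSO at low levels, with 2, 2 and 0 against 17, 9 and 18 and with 0, 6 and 2 against 35, 31 and 32 normalized counts. Leaving out any single HK3-null library in DMSO ended both calls, with adjusted p-values of 0.0553 to 0.0909 in limma.

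ANPEP and THBS1, which no region listed, were picked out after their values were seen. ANPEP, the CD13 aminopeptidase of myeloid cells, had 2329, 2291 and 2501 in Cas9 control DMSO and 9533, 9365 and 8433 in HK3-null DMSO, a difference of 1.94 ± 0.07 (adjusted p = 2.89e-09, limma). THBS1, the matrix protein thrombospondin 1, had 66, 84 and 140 in Cas9 control ATRA and 15296, 13285 and 11043 in HK3-null ATRA, a difference of 7.15 ± 1.08 (adjusted p = 0.000151, limma). In DMSO it had 205, 5 and 6 in Cas9 control, with replicate 1 far above the others, and 97, 90 and 58 in HK3-null. The difference between the genotypes in the ATRA effect was 5.03 ± 1.53 and did not pass (adjusted p = 0.0675, limma).

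Of the 6 tested genes of the proximal imprinted domain and its neighbours, 2 were higher (NIPA1 and ATP10A) and 3 lower in each treatment. CYFIP1, a regulator of actin and translation, had 1963, 1700 and 1783 against 259, 224 and 242 in DMSO, a difference of -2.91 ± 0.08 (adjusted p = 4.8e-10, limma). CYFIP1 and NIPA1, which lie in the same cluster of genes, thus differed in opposite directions. Of the paternally expressed genes of the domain, MKRN3 had 581, 547 and 567 in Cas9 control DMSO and 212, 196 and 218 in HK3-null DMSO. It was lower in both treatments (-1.44 ± 0.12 and -1.85 ± 0.12, adjusted p = 1.92e-06 and 2.2e-07, limma). SNRPN, SNURF, NDN and MAGEL2 had group means of at most 5 normalized counts and were not tested.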

How the data were processed

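Chromatin and RNA of HL60 cells, Cas9 control or labelled HK3-null, were compared by ATACseq (8 libraries) and RNAseq (12 libraries). For ATACseq, the authors deposited a signal per merged region, made from duplicate-free hg38 alignments, MACS2 peaks and sampling of every library to one tag number. For RNAseq, the deposited values are the log2 of a whole number per gene, counts that the authors normalized (DESeq2 is in the submitters' processing notes), with 0 written as the log2 of 0.001. The RNA aligner is not given in the sources used here.

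The members and lists were chosen with earlier results of these data known. Fits used limma 3.58.1 (R 4.3.3) with trend, 1 mean per group and Benjamini-Hochberg adjustment over all features, on log2(signal + 1) for regions above the 25th percentile of mean signal and on the deposited log2 for genes with a group mean above 3. A call needed an adjusted p under 0.05 and a fold of 1.5 (regions) or 2 (genes). Tests were two-sided. The fits were tested on simulated data. Rows named NA (330, at most 0.00926% of normalized counts) were left out. Named regions were the 6 largest called rises and falls in DMSO without overlap, the 3 largest called ATRA rises and falls per genotype and the 3 of highest signal. Named genes were the 5 largest falls and rises called in both treatments and the 3 largest ATRA rises and falls per genotype. Those needed a group mean of at least 50 and replicates without overlap in each contrast used. The 3 largest called changes of each list were named as well. FES, MGA, AKAP13, PKM, B2M, PML, NR2F2, BMF, MKRN3, IGF1R RNA, ANPEP and THBS1 were added after their values were seen. Promoters were printed only where no annotated exon covered them, and 1 region's sequence is not reported here. Alternatives were another pseudocount, no filter, quantile normalization, another fold, a replicate block and leaving out each library.

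Replicate numbers in the labels paired the RNAseq libraries. The check was first run on the deposited log2 with its value for 0, where same-numbered deviations from group means correlated at -0.148 to 0.353. It was then repeated on log2(normalized count + 1), since a single 0 dominates the first scale, and before the calls of the blocked fit were compared. There 18 same-numbered pairs correlated at 0.178 to 0.632, and 12 of 12 libraries correlated best with their own number. The 12 ATACseq pairs correlated at -0.209 to 0.0539. With 2 libraries per group the deviations mirror each other, so each pair of groups gives only 1 distinct value. Pairs with different numbers give its negative (-0.0539 to 0.209), so the check says little about pairing in ATACseq.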

Additional observations from a re-analysis of the deposited data

Results flagged for a closer look

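In RNAseq, the effect of ATRA differed between the genotypes for 10 of the genes named above by the interaction term in limma, adjusted over all genes tested. The differences are HK3-null minus Cas9 control on the log2 scale, with the SE. BMF (1.55 ± 0.18, adjusted p = 0.000386, limma) and KLHL25 (1.41 ± 0.31, adjusted p = 0.0146, limma) were lower with ATRA in Cas9 control and higher in HK3-null, and KLHL25 had 4 to 8 normalized counts in every HK3-null library. The difference was -1.68 ± 0.16 for TGM5 (adjusted p = 7.63e-05, limma), -1.47 ± 0.12 for SV2B (adjusted p = 3.3e-05, limma) and -1.22 ± 0.18 for BCL2A1 (adjusted p = 0.00151, limma). It was smaller for PKM (0.65 ± 0.08, adjusted p = 0.000319, limma), PPIB (0.44 ± 0.09, adjusted p = 0.00795, limma), NR2F2 (-0.65 ± 0.11, adjusted p = 0.00302, limma) and PML (-0.71 ± 0.13, adjusted p = 0.00439, limma). For TYRO3 it was -0.91 ± 0.23 (adjusted p = 0.028, limma), and 8 of the libraries, left out one at a time, each ended that call (adjusted p = 0.0519 to 0.0751, limma).

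For the region at chr15:93289801-93290351 near LOC105370983, both Cas9 control libraries had lower signal with ATRA and both HK3-null libraries had higher signal with ATRA. The difference in effect was 2.86 on the log2(signal + 1) scale, and it was not tested. The HK3-null values were 1.1 and 0.0 in DMSO and 1.7 and 1.2 with ATRA, at the bottom of the scale, where no fall could be measured and the added 1 sets the size of the change. The HK3-null change itself was 0.74 ± 0.53 and was not called (adjusted p = 0.385, limma).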

How the results depend on the processing

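The numbers of chromosome 15 regions called lower (424) and of listed genes called lower in DMSO (88) and ATRA (89) stayed within 1.5 times under every alternative run. Regions called higher in DMSO numbered 11, 17 with no filter, and 5 to 12 when 1 library was left out. The regions called for ATRA in Cas9 control (55) numbered 17 to 77 and in HK3-null (79) 33 to 87 with 1 library left out, where the lone library of a group is assumed to vary like the others. With a fold of 1.5, listed genes called higher in DMSO rose from 5 to 10, those called for ATRA in Cas9 control from 17 to 38 and in HK3-null from 35 to 61. The median region difference in DMSO of -1.53 was -1.38 with a pseudocount of 5, -1.64 with no filter, -1.44 after quantile normalization and -1.36 after centring. The median RNA difference in ATRA of -1.0 was -1.06 after quantile normalization. With the replicate block, which pairs the RNAseq libraries, 91 listed genes were lower and 5 higher in DMSO, 92 and 7 in ATRA, and 17 and 35 were called for ATRA in Cas9 control and HK3-null, so no count moved by over 1.5 times. In ATACseq, same-numbered libraries are not known to share more than the number. There the block gave 423 regions lower and 10 higher in DMSO and 51 and 74 called for ATRA. Crossing the numbers of the Cas9 control ATRA libraries, chosen after seeing the data, gave 57 in Cas9 control. Of 27 named region results 24, and of 73 named gene results 64, kept direction and call in every alternative. No result reversed. ATAC depth is unknown, and 2 libraries per group limit the precision.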
